A study of Caenorhabditis elegans with 12 samples.

Results

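The comparison described here set RNA from WT *C. elegans* raised on the H2S donor FW1256 against RNA from *eat-2* mutants that had not been given the compound. The members were taken from the sample titles: 8 of the 12 libraries of the series, 4 from FW1256-exposed WT and 4 from *eat-2* mutants, with unexposed WT left out of the tests reported here. Each library was made from total RNA of the whole bodies of a pool of nematodes at an age of 6 days. FW1256-exposed nematodes were of the N2 strain and met 500 µM FW1256 from the L1 larval stage on; *eat-2* mutants were of strain DA1116, the only strain of that genotype sequenced, and both groups were fed *Escherichia coli* OP50-1 on nematode growth medium agar. Strain and exposure therefore differ together between the groups, and their parts cannot be told apart. No label says that the 4 libraries of a group came from separate cultures, so p-values measure only the spread between these samples.

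H2S is made in animal cells from cysteine and homocysteine by enzymes of the transsulfuration pathway and from mercaptopyruvate by mercaptopyruvate sulfurtransferases, and is oxidized in mitochondria. FW1256 releases H2S slowly in water. The gene *eat-2* codes for a subunit of a nicotinic acetylcholine receptor of the pharyngeal muscle. Worms that lack its function pump slowly, take in less food and are a standard model of dietary restriction in worms. Both interventions are studied for lifespan, so the question of this comparison is how far the transcriptomes of the groups lie apart. The *eat-2* gene itself was not analysed here per library.

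Levels are given as CPM, a gene's estimated counts scaled to the same total in every library over the genes of the tables, after TMM normalization. A log2 fold change is positive where FW1256-exposed WT was higher, and SE is its standard error. Genes with an adjusted p under 0.05 in edgeR's quasi-likelihood test over the 8 libraries were called. Totals were between 14769332 and 19199982 estimated counts in FW1256-exposed WT and between 14842320 and 19170837 in *eat-2* mutants. Of 5272 genes in the tables, 3715 had enough counts to be tested. No source states that counting used strand, so a gene whose exons overlap those of another may share reads with it; besides the genes marked as such below, this holds for *aak-1*, *aak-2*, *akt-1*, *cng-1*, *cth-2*, *ctl-2*, *eef-1A.1*, *gpd-2*, *gpx-1*, *gsr-1*, *hipr-1*, *hrg-7*, *idh-2*, *inx-14*, *lin-26*, *lys-8*, *mpst-7*, *nos-3*, *pccb-1*, *sars-1*, *sod-2* and *vha-18*. CPM is not divided by gene length, and levels are compared between libraries, not between genes.

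FW1256-exposed WT and *eat-2* mutants differed at most tested genes. Of the 3715 genes, 1229 were higher in FW1256-exposed WT (33.1%) and 1346 were lower (36.2%), so that 69.3% were called, and every count of members below is to be read against these shares. The groups did not overlap at 2366 of the called genes, which is 63.7% of those tested. Most differences were small. The median size of the log2 fold change was 0.52 over called genes, 0.36 over genes called higher and -0.85 over genes called lower. At a threshold of at least 2-fold in addition, 45 genes were higher (1.21%) and 565 were lower (15.2%), so larger differences were mostly towards lower levels in FW1256-exposed WT. The side also went with the level of the gene. Tested genes were split into 4 count classes of nearly equal size by their mean count. In the class with the lowest counts, 48 genes were higher and 451 lower of 931; in the class with the highest, 572 were higher and 155 lower of 929. Likewise, between 1015 and 1078 genes were at 0 in a library of FW1256-exposed WT, against between 606 and 663 in a library of *eat-2* mutants, and 80 genes were at 0 in all 4 libraries of FW1256-exposed WT while having a count in all 4 of *eat-2* mutants. No gene showed the reverse. Pseudogenes, which are mostly of low level, were called higher at 87 and lower at 342 of 652 tested, and protein-coding genes at 1141 and 1002 of 3058. In RNA of whole bodies, fewer cells of a type and less RNA per cell cannot be told apart.

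The largest changes were sought among the 1276 called genes that had a symbol, separate groups and 100 or more counts on average. There, the 12 that rose most included a pair of cuticle collagens, enzymes of carbohydrate, lipid and redox metabolism, and a nuclear hormone receptor. The collagen *col-160* (chromosome V, 13200982 to 13202189 in WBcel235, overlapping *col-159*) was measured at 1325, 1257, 1216 and 1070.5 CPM in FW1256-exposed WT, against 246, 575, 215 and 176 CPM in *eat-2* mutants. The collagen *col-124* (chromosome IV, 10216451 to 10217617, overlapping *qns-1*) had 1138, 1129.9, 1176 and 1135 CPM in FW1256-exposed WT and 176, 586, 205 and 189 CPM in *eat-2* mutants. In both genes *eat-2* replicate 2 stood above the other *eat-2* libraries but below each FW1256-exposed library. The difference was 4.01-fold for *col-160* (adjusted p = 4.20e-04, edgeR), and the log2 fold change of *col-124* was 1.98 ± 0.36 SE (adjusted p = 7.83e-04, edgeR); without *eat-2* replicate 2 the value for *col-124* was 2.58. A UDP-glucuronosyltransferase, *ugt-64*, one of the enzymes that attach sugars to lipophilic compounds, reached 137, 137, 144 and 148 CPM in FW1256-exposed WT, against 35.7, 45.9, 35.9 and 37.5 CPM in *eat-2* mutants, a 3.65-fold difference (adjusted p = 2.30e-07, edgeR). The glycogen debranching enzyme *agl-1* (chromosome II) showed 349, 336, 337 and 333 CPM with FW1256 and 105, 94.5, 109.8 and 119 CPM in *eat-2* mutants, 3.16-fold higher (adjusted p = 1.18e-07, edgeR), and its libraries varied little within either group.

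The carnitine palmitoyltransferase family gene *cpt-5*, whose family carries fatty acids into mitochondria, had few counts in both groups, with 23.5, 26.3, 25.1 and 22.4 CPM in FW1256-exposed WT and 7.20, 10.1, 7.46 and 6.63 CPM in *eat-2* mutants (log2 fold change 1.63 ± 0.14 SE). The methionine sulfoxide reductase *msra-1*, which repairs oxidized methionine in proteins, was at 249, 193, 196 and 192 CPM in FW1256-exposed WT, against 67.5, 94.8, 69.7 and 61.3 CPM in *eat-2* mutants (2.83-fold higher, adjusted p = 9.74e-06, edgeR). The nuclear hormone receptor *nhr-114* (chromosome V, 4187202 to 4190008) was at 194, 182, 204 and 168 CPM in FW1256-exposed WT, against 61.1, 98.4, 60.1 and 54.0 CPM in *eat-2* mutants (log2 fold change 1.45 ± 0.17 SE, adjusted p = 4.63e-05, edgeR). None of these groups overlapped. The remaining rises were *pid-5* (log2 fold change 1.34), a gene of the piRNA pathway, *epic-1* (1.19), the neuropeptide-like gene *nlp-24* (1.19), the chemoreceptor gene *srh-237* (1.10) and the haem transporter *hrg-4* (1.08). Exons of *ugt-64*, *agl-1*, *msra-1*, *pid-5* and *nlp-24* overlap those of another gene.

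The 12 genes that fell most differed by more than the rises did, and most of them were under 20 CPM in each FW1256-exposed library. The largest fall was that of *eol-1* (chromosome V, 13979462 to 13980907), a homologue of the mammalian RNA decapping enzyme DXO that is known as a gene induced by viral infection. It was measured at 0.543, 1.11, 0.998 and 0.320 CPM in FW1256-exposed WT and at 56.8, 44.4, 56.5 and 54.9 CPM in *eat-2* mutants, 71.9-fold lower (log2 fold change -6.17 ± 0.25 SE, adjusted p = 1.42e-07, edgeR). The gene *bus-8B*, of a glycosyltransferase family needed for the cuticle surface, had 3.26, 4.44, 3.81 and 2.75 CPM in FW1256-exposed WT and 78.8, 67.4, 75.5 and 72.4 CPM in *eat-2* mutants (20.7-fold lower), but it overlaps *bus-8A*, so reads may be shared. The cuticlin-like gene *cutl-8*, which overlaps T01G9.2, had 2.82, 3.54, 4.24 and 5.11 CPM in FW1256-exposed WT, against 51.6, 50.2, 46.9 and 51.8 CPM in *eat-2* mutants (12.8-fold lower). The ferritin *ftn-1*, whose protein stores iron in the intestine, and *tir-1*, which codes for the TIR-domain adaptor of p38 immune signalling, came next and are described with their pathways below.

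Regulators were among these falls as well. The bZIP factor *cebp-1*, known for its role in the DLK-1 pathway of neurons, was at 40.7, 47.3, 36.3 and 41.7 CPM in FW1256-exposed WT, against 268, 239, 283 and 256 CPM in *eat-2* mutants (log2 fold change -2.66 ± 0.08 SE, adjusted p = 3.68e-08, edgeR). The Mediator subunit gene *mdt-26* was at 12.7, 12.8, 16.3 and 16.3 CPM in FW1256-exposed WT and 108, 70.6, 82.5 and 81.3 CPM in *eat-2* mutants (-2.56), and the forkhead factor *fkh-8*, a regulator of ciliated sensory neurons, at 3.04, 3.75, 4.30 and 4.15 CPM in FW1256-exposed WT and 23.4, 20.4, 24.9 and 21.7 CPM in *eat-2* mutants (-2.57). In all 3 genes each *eat-2* library was at least 4 times as high as each FW1256-exposed library. The others were the cyclic nucleotide-gated channel gene *cng-1* (-2.93), the sodium-proton exchanger *nhx-4* (-2.89, or -3.48 without FW1256-exposed replicate 2), the trypsin-like protease *try-5* (-2.66), which in males activates sperm, and *scl-2* (-2.48), a secreted protein of the SCP family. Their levels in each library are in the plot of the 24 genes.

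**Figure D1:**
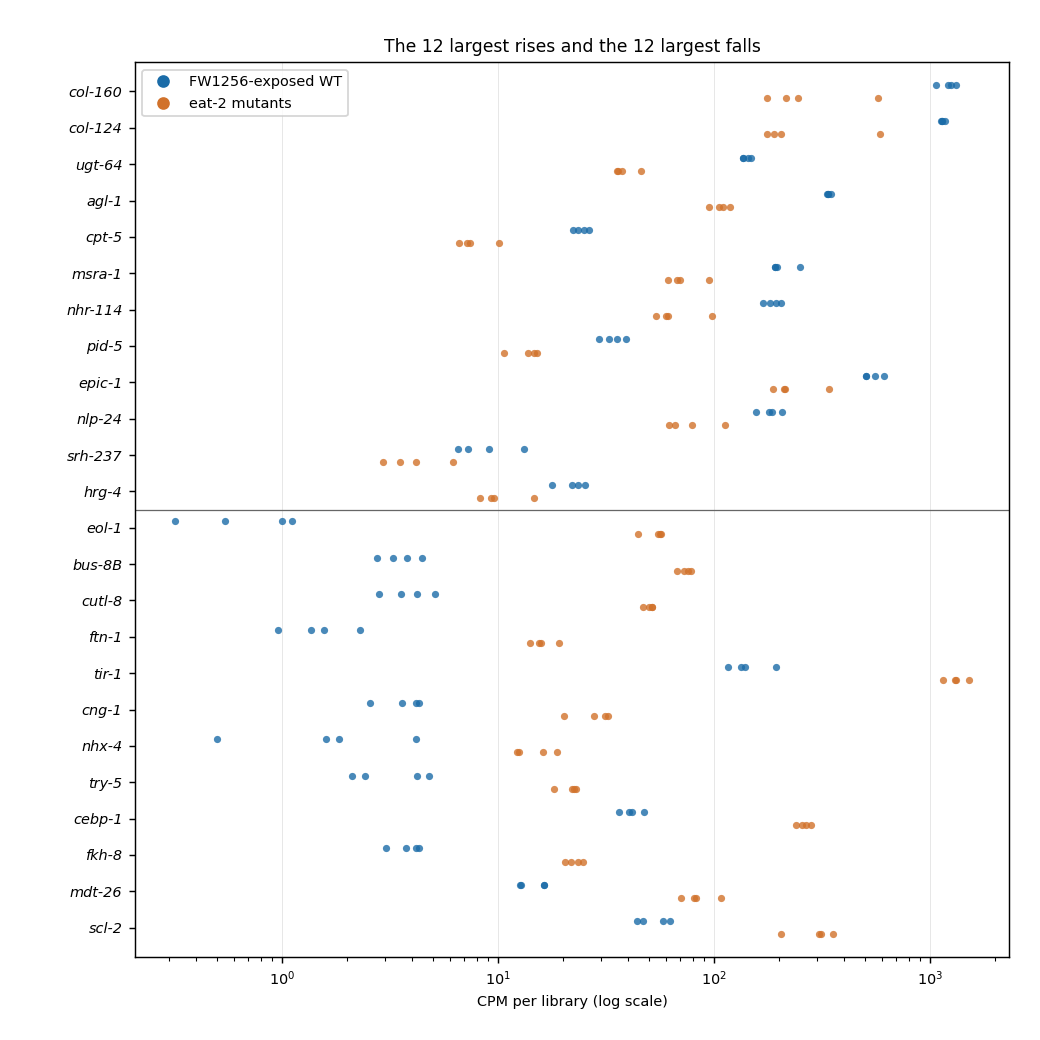
CPM per library on a log axis for the 12 genes with the largest rises (upper rows, from *col-160* to *hrg-4*) and the 12 with the largest falls (lower rows, from *eol-1* to *scl-2*), with the 4 FW1256-exposed WT libraries drawn above the 4 *eat-2* libraries in each row. No gene has overlapping groups, and the falls span a wider range than the rises, with log2 fold changes from -2.48 to -6.17, whereas the rises start at 1.08.

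Genes were then described by family. Of the 56 lists with at least 3 tested members, those of the germline, oocytes, sperm, the proteasome, ubiquitin enzymes and glycolysis held mainly rises, and those of zygotic embryos, F-box and related adaptors, immune effectors, neuropeptides and ion channels, nuclear hormone receptors, homeobox and related factors and transthyretin-like genes held mainly falls. Over all tested genes the median log2 fold change was -0.05. Lists were not compared with genes of the same count class, so the part of count level in these directions was not tested. Counts were also summed by list as a share of each library's counts over the genes of the tables. The shares of 42 of the 56 lists did not overlap between the groups, 20 of them higher and 22 lower in FW1256-exposed WT. As shares of a whole they are not independent of each other.

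**Figure D2:**
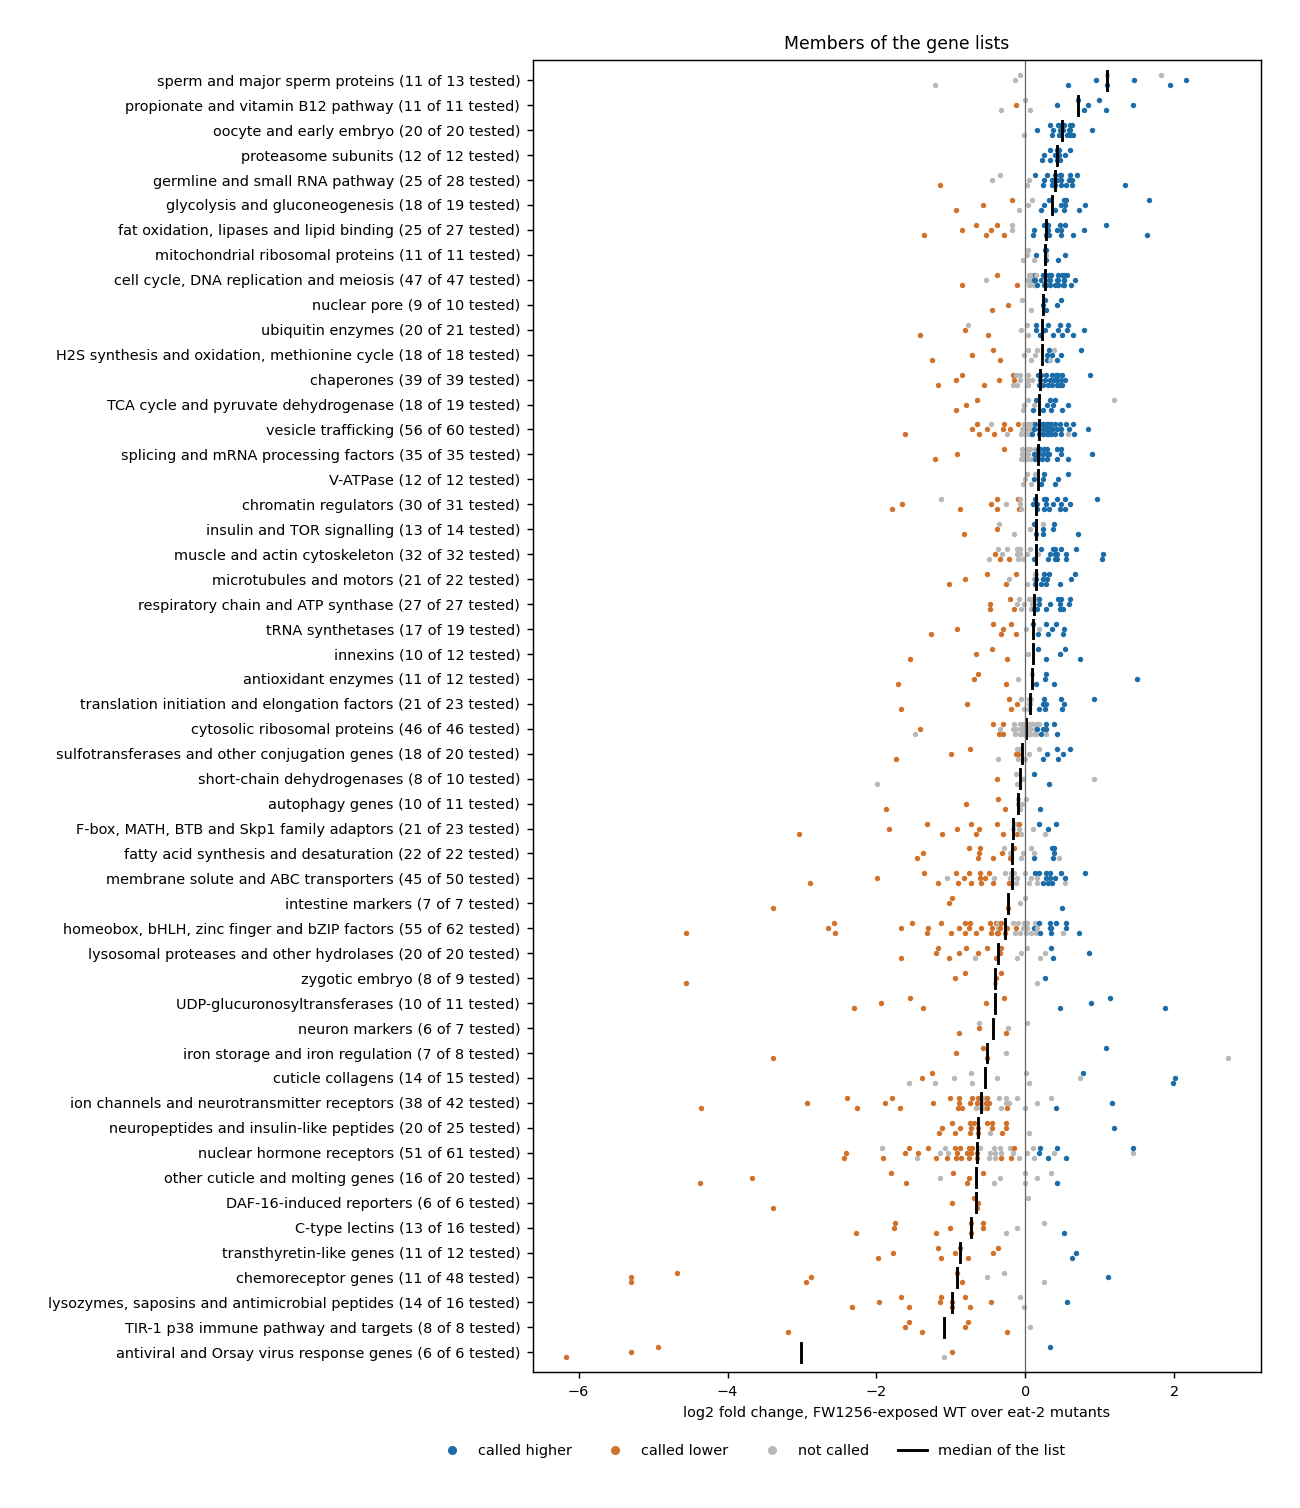
Log2 fold change (FW1256-exposed WT over *eat-2* mutants) of each tested member of the gene lists with at least 6 tested members, ordered by the list's median (black bar); blue points were called higher, orange points called lower, and grey points were not called. Oocyte genes and proteasome subunits lie together right of 0, while members of the immune, neuronal and receptor lists spread to the left.

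Genes of reproduction were mostly higher in FW1256-exposed WT. Of 20 tested genes of the oocyte and early embryo, 19 were higher in FW1256-exposed WT and 0 lower, with a median log2 fold change of 0.50. Across all genes 33.1% were higher, and 61.6% in the highest count class, which holds *lin-41* and *rme-2*. RNAs of the oocyte list are made in the growing oocyte and loaded into the egg. They held at least 2.53% of counts in each FW1256-exposed library, whereas the lowest *eat-2* library had 1.83% and no *eat-2* library reached the FW1256-exposed range. The largest rise was that of *lin-41* (chromosome I, 9334800 to 9342496), a TRIM-NHL protein that holds oocytes before maturation. It was at 1456, 1332, 1415 and 1382 CPM in FW1256-exposed WT and 685, 775, 767 and 778 CPM in *eat-2* mutants (log2 fold change 0.89 ± 0.05 SE, adjusted p = 5.77e-07, edgeR). The yolk receptor gene *rme-2*, which oocytes use to take up yolk, was at 3259, 3126, 3166 and 3199.7 CPM in FW1256-exposed WT and 1926, 2056, 2099 and 2123 CPM in *eat-2* mutants (log2 fold change 0.64 ± 0.04 SE, adjusted p = 1.14e-06, edgeR). Every FW1256-exposed library was above every *eat-2* library for both.

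The yolk protein itself went the other way. The vitellogenin *vit-2*, made in the intestine and the list member with the most counts, had 26812, 26516, 28453 and 24471 CPM in FW1256-exposed WT and 31104, 33130.3, 31711 and 29162 CPM in *eat-2* mutants, a log2 fold change of -0.24 ± 0.06 SE (adjusted p = 0.00483, edgeR). It was the only vitellogenin measured, and it overlaps C42D8.9.

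Of germline and small RNA pathway genes, 20 were higher and 1 lower of 25 tested (median 0.40). After *pid-5*, at 35.6, 39.3, 29.4 and 32.8 CPM in FW1256-exposed WT against 13.7, 14.7, 15.1 and 10.7 CPM in *eat-2* mutants, the largest rise was that of *nos-3*, a Nanos homologue that controls germ cell fate, at 652, 636, 675 and 652 CPM in FW1256-exposed WT and 388, 406, 399 and 419.9 CPM in *eat-2* mutants (log2 fold change 0.70 ± 0.03 SE, adjusted p = 3.01e-07, edgeR). The P granule gene *deps-1* was the exception, at a low level, with 4.61, 3.75, 2.56 and 4.47 CPM in FW1256-exposed WT and 12.1, 6.02, 8.36 and 7.67 CPM in *eat-2* mutants (-1.14, adjusted p = 0.00290, edgeR); it overlaps Y65B4BL.7. Among genes of the cell cycle, DNA replication and meiosis, 31 were higher and 3 lower of 47 (median 0.26). The B-type cyclin *cyb-2.2* rose (0.66 ± 0.05 SE), and the D-type cyclin *cyd-1*, which acts early in the somatic cell cycle, fell (-0.85 ± 0.10 SE). The falls of this list numbered 1 in place of 3 without FW1256-exposed replicate 1, and those of the germline list 2 in place of 1. The innexins split along a similar line, with 5 higher and 4 lower of 10, although that majority of rises was not kept with library size alone as the scaling (4 and 4) or when overlapping genes and pseudogenes were left out (3 and 4). The rises were led by *inx-14* (0.73) and *inx-22* (0.53), which build the gap junctions of oocytes, and the falls with enough counts by *inx-2* (-0.66).

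Sperm genes had few counts in both groups at day 6. Of 11 tested, 6 were higher in FW1256-exposed WT and 0 lower (median 1.09). The sperm-specific family gene *ssp-10* had 10.1, 17.9, 8.92 and 11.8 CPM in FW1256-exposed WT and 5.77, 8.29, 5.79 and 5.25 CPM in *eat-2* mutants (log2 fold change 0.95 ± 0.24 SE, adjusted p = 0.00532, edgeR). Its groups did not overlap, whereas those of *nspd-7* did (9.07, 15.9, 7.17 and 6.90 CPM in FW1256-exposed WT, 3.51, 6.97, 4.95 and 2.71 CPM in *eat-2* mutants). FW1256-exposed replicate 2 was the highest of its group for both genes. Of 3 tested genes of males and of spermatogenic phosphatases, 1 was higher and 2 lower, each with separate groups. The phosphatase gene *gsp-4*, which acts in sperm and has a near-identical copy, rose, with 4.29, 10.6, 4.55 and 4.41 CPM in FW1256-exposed WT and 0.634 to 2.48 CPM in *eat-2* mutants (1.94, adjusted p = 0.00332, edgeR). Besides *try-5*, *plg-1*, a mucin-like copulatory plug gene, fell, with 18.1, 25.3, 17.4 and 18.5 CPM in FW1256-exposed WT and 63.1, 59.4, 58.0 and 52.6 CPM in *eat-2* mutants (-1.56, adjusted p = 3.69e-06, edgeR).

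**Figure D3:**
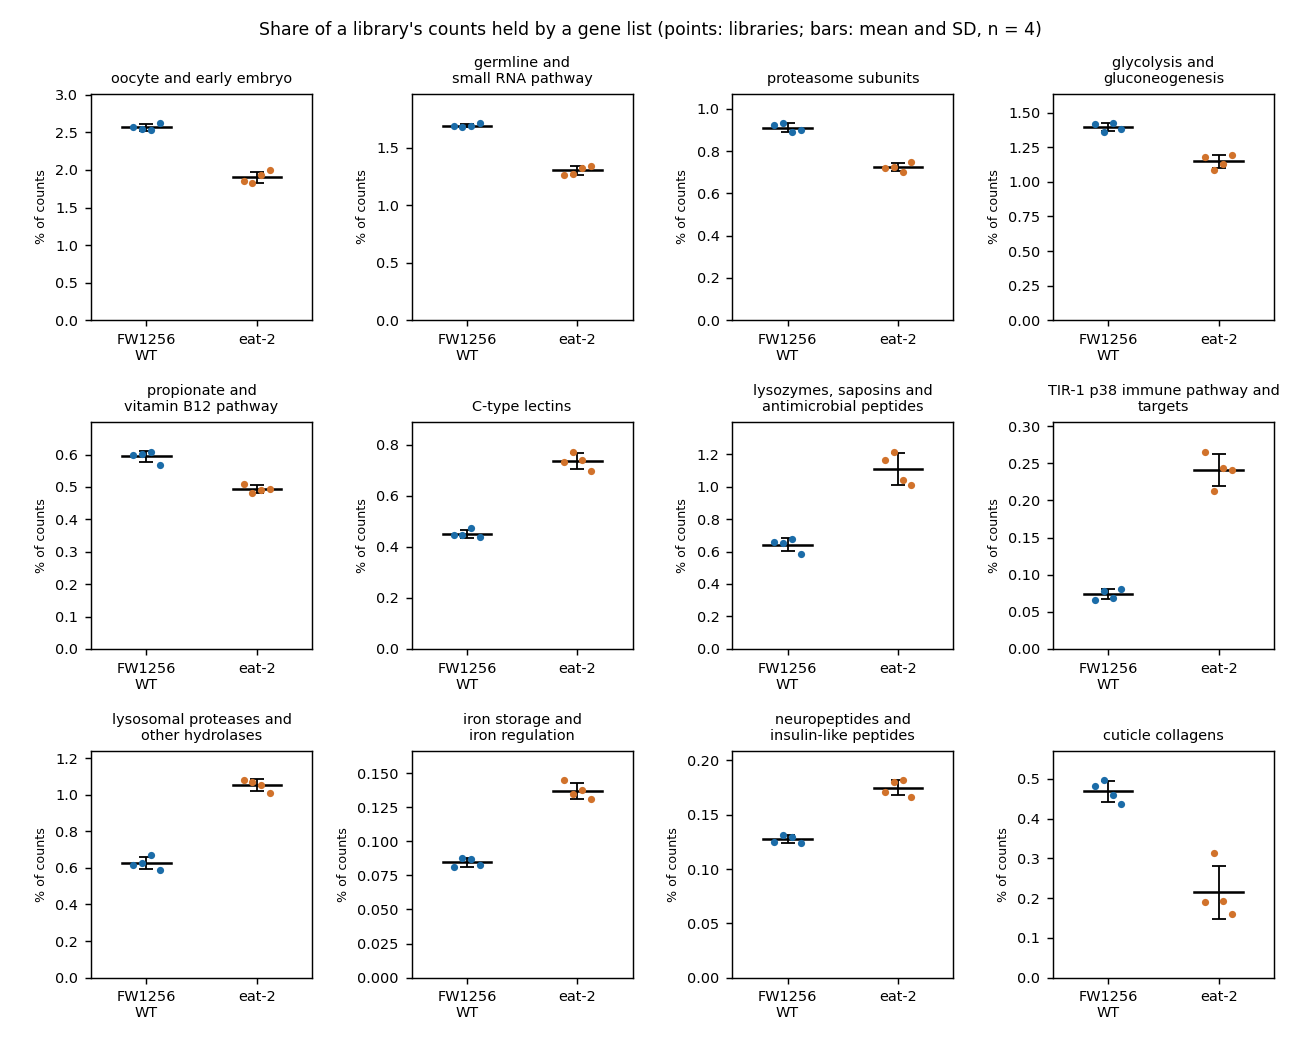
Share of a library's counts (percent, axis from 0) held by 12 gene lists, with FW1256-exposed WT on the left of each panel and *eat-2* mutants on the right; points are libraries, and bars give the mean and SD (n = 4). In all 12 panels the libraries of one group lie above all libraries of the other, and in the collagen panel *eat-2* replicate 2 lies closest to the FW1256-exposed libraries.

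Whole-body RNA mixes tissues and stages, so markers of other tissues are given beside these results. Of 7 intestine markers 1 was higher and 4 lower, and their share of counts was 2.75% to 3.16% in FW1256-exposed WT, against 3.64% to 3.98% in *eat-2* mutants. Most of that share was *vit-2* (means of 26563 and 31277 CPM), with a smaller part from *asp-1* (2094 and 4248 CPM), so it largely follows 1 gene. The rise was that of *pho-1* (0.49), which overlaps EGAP2.1. Of 6 tested neuron markers 3 were lower and 0 higher, with 0.0163% to 0.0183% of counts in FW1256-exposed WT and 0.0202% to 0.0232% in *eat-2* mutants. Muscle and actin genes were higher at 16 and lower at 3 of 32, with 5 lower without FW1256-exposed replicate 2 or *eat-2* replicate 4 and 7 lower with library size alone. Zygotic embryo genes, expressed once embryos begin to transcribe, were higher at 1 and lower at 5 of 8 (3 lower at a mean of at least 50 counts), with 0.0716% to 0.0769% of counts in FW1256-exposed WT, overlapping 0.0664% to 0.0750% in *eat-2* mutants. Germline, oocyte and muscle shares of counts were thus higher in FW1256-exposed WT. Those of neuron markers and of intestine markers, the latter mostly *vit-2*, were lower. The part of tissue shares in any single gene's difference was not tested.

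The X chromosome stood apart from the autosomes. In *C. elegans* the X is largely silent in germ cells, and few genes needed in the germline lie on it. Of 429 tested genes on the X, 44 were higher (10.3%) and 255 were lower (59.4%), with a median log2 fold change of -0.46. On the autosomes 1185 were higher (36.1%) and 1091 were lower (33.2%) of 3286, with a median of 0.01. Chromosome III had the largest share of rises, 264 of 598 (44.1%), and chromosome V the smallest among autosomes, 203 of 749 (27.1%). The X differed from the autosomes also at the same level. In the second highest count class, 18 genes were higher and 74 lower of 120 on the X, compared with 440 higher and 174 lower of 808 on autosomes. In the highest class, 8 were higher and 20 lower of 41 on the X, compared with 564 and 135 of 888 on autosomes. In the lowest class the shares of falls were close, 47.1% on the X and 48.6% on autosomes. Oocyte and germline genes rose in the same libraries, and their part in the difference between chromosomes was not tested.

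**Figure D4:**
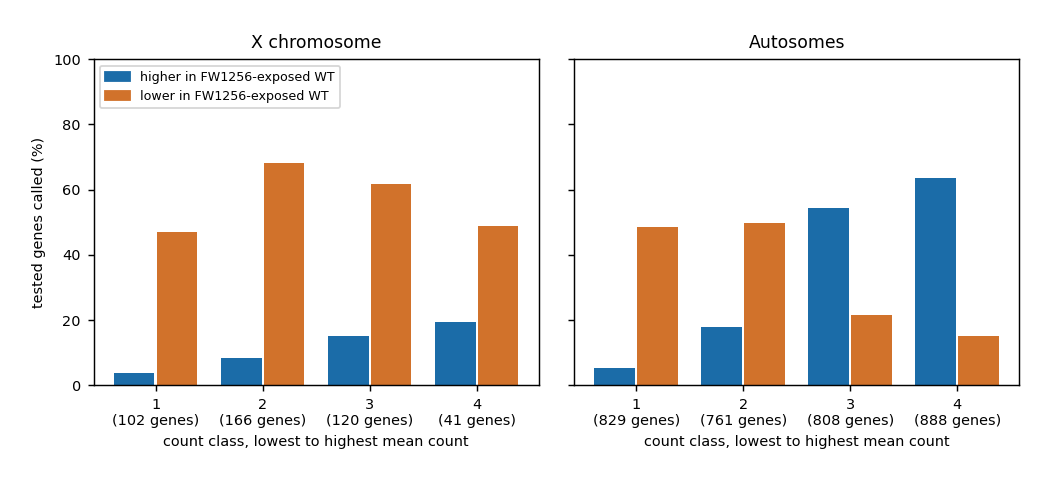
Percentage of tested genes called higher (blue) and lower (orange) in FW1256-exposed WT, by count class (lowest to highest mean count), for the X chromosome (left) and the autosomes (right), with the number of genes under each pair of bars. On autosomes rises outnumber falls in the upper 2 classes, whereas on the X falls outnumber rises in all 4.

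A few pairs of paralogues with a copy on the X, chosen after their values had been seen, are given as a description and support nothing about the chromosome. Elongation factor 1-alpha is encoded by *eef-1A.1* on chromosome III and *eef-1A.2* on the X. The first was at 17812, 17656, 17117 and 16349.6 CPM in FW1256-exposed WT and 15659.9, 17783, 16547 and 16431 CPM in *eat-2* mutants, with overlapping groups (log2 fold change 0.05 ± 0.05 SE, adjusted p = 0.362, edgeR). The second was at 1019, 1077, 1115 and 1023 CPM in FW1256-exposed WT, against 3589, 3207, 3405 and 3226 CPM in *eat-2* mutants (log2 fold change -1.66 ± 0.05 SE, adjusted p = 3.68e-08, edgeR). Among the poly(A)-binding proteins, *pab-1* on chromosome I had a log2 fold change of -0.02 ± 0.04 SE (adjusted p = 0.675, edgeR), whereas *pab-2* on the X fell, at 293, 261, 317 and 286 CPM in FW1256-exposed WT against 576, 504, 558 and 548 CPM in *eat-2* mutants (-0.92 ± 0.06 SE, adjusted p = 1.59e-06, edgeR). For the ATP synthase b subunit, *asb-1* on chromosome III rose (0.50 ± 0.07 SE) and *asb-2* on the X did not pass the test (0.07 ± 0.05 SE; adjusted p = 0.0458 with DESeq2). The S-adenosylmethionine synthetases ran the other way, with the X-linked *sams-1* higher (0.75) and *sams-5* lower (-1.25). Reads of such similar sequences can be split between the copies in the counting, so each single value is uncertain.

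Most measured genes on a list of p38 immune signalling and its targets were lower in FW1256-exposed WT. In worms the adaptor TIR-1 activates a kinase cascade through SEK-1 to the p38 kinase PMK-1. That kinase acts on the bZIP factor ATF-7 to drive genes of pathogen defence, and the phosphatase VHP-1 limits p38 and JNK kinases. Of the 8 measured genes on the list, 7 were lower and 0 higher (median -1.10, while 36.2% of all genes were lower). They include the phosphatase gene *vhp-1*, the pathogen response gene *irg-4* and *skn-1*. The only p38 kinase gene among them was *pmk-3*, and *pmk-1*, which codes for PMK-1, was not among them. The pathway list was chosen with earlier results of these data known. The gene *tir-1* (chromosome III, 3869590 to 3901642) was at 116, 133, 140.0 and 194 CPM in FW1256-exposed WT, against 1519, 1155, 1310.4 and 1323 CPM in *eat-2* mutants, 9.11-fold lower (log2 fold change -3.19 ± 0.15 SE, adjusted p = 2.89e-07, edgeR). The highest FW1256-exposed library was far below the lowest *eat-2* library.

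Among kinase genes of the list, *sek-1* was at 109.6, 114, 116 and 112 CPM in FW1256-exposed WT and 191, 186, 194 and 196 CPM in *eat-2* mutants (-0.77 ± 0.04 SE). The p38 gene *pmk-3* was at 42.4, 38.6, 40.4 and 46.5 CPM in FW1256-exposed WT and 119, 97.3, 115 and 110.4 CPM in *eat-2* mutants (-1.39 ± 0.08 SE). The phosphatase *vhp-1* was at 94.0, 103, 89.1 and 103 CPM in FW1256-exposed WT, against 319, 275, 308 and 292 CPM in *eat-2* mutants (-1.62 ± 0.06 SE, adjusted p = 1.35e-07, edgeR), so an inhibitor of the cascade fell along with its activators. The factor *atf-7* (-0.81), the calcium-dependent kinase *unc-43* (-0.24) and the pathogen response gene *irg-4* (-1.57) fell too. For *irg-4* the levels were 17.5, 23.0, 15.8 and 11.2 CPM in FW1256-exposed WT and 43.6, 70.1, 46.3 and 39.8 CPM in *eat-2* mutants. The stress factor *skn-1* did not pass the test (0.07 ± 0.13 SE, adjusted p = 0.674, edgeR). Of these genes *sek-1*, *atf-7* and *skn-1* overlap others.

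Immune effectors followed. Of C-type lectins, a family of secreted sugar-binding proteins, 1 was higher and 9 were lower of 13 (median -0.73), with 0.437% to 0.476% of counts in FW1256-exposed WT and 0.696% to 0.773% in *eat-2* mutants. The largest fall was that of *clec-67*, at 42.0, 40.9, 58.1 and 43.4 CPM in FW1256-exposed WT and 209, 272, 227 and 188 CPM in *eat-2* mutants (-2.28 ± 0.14 SE, adjusted p = 1.03e-06, edgeR). The lectin gene *clec-41* was at 379, 398, 465 and 374 CPM in FW1256-exposed WT and 1335, 1739, 1231 and 1204 CPM in *eat-2* mutants (-1.77 ± 0.12 SE). The single rise was that of *clec-88* (0.52), which overlaps *ctsa-4.1*. Among lysozymes, saposins and antimicrobial peptides, 1 was higher (*irg-8*, 0.55) and 11 were lower of 14 (median -0.99). The caenacin *cnc-2*, an antimicrobial peptide of the epidermis, had 40.6, 36.2, 30.8 and 18.7 CPM in FW1256-exposed WT and 202, 167, 141 and 129 CPM in *eat-2* mutants (-2.33 ± 0.23 SE, adjusted p = 1.29e-05, edgeR). The saposin-like *spp-18* had 82.4, 78.0, 94.8 and 83.3 CPM in FW1256-exposed WT and 371, 333, 327 and 289 CPM in *eat-2* mutants (-1.96 ± 0.08 SE, adjusted p = 1.51e-07, edgeR). Every *eat-2* library lay above every FW1256-exposed library for these 4 falls.

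Of 6 antiviral response genes, 1 was higher (*hipr-1*, 0.32) and 4 were lower (2 at a mean of at least 50 counts). Besides *eol-1*, the fall of *pals-23*, of a family induced by intracellular infection, passed the count minimum for named genes, with 36.8, 42.1, 37.1 and 30.2 CPM in FW1256-exposed WT and 74.5, 83.5, 71.3 and 59.0 CPM in *eat-2* mutants (-0.98 ± 0.12 SE, adjusted p = 7.43e-05, edgeR). No gene of a virus was in the tables analysed here.

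Iron genes were mostly lower. Ferritins store iron, the cytosolic aconitase ACO-1 senses it, ferroportins export it and HRG proteins carry haem. Of 7 tested, 1 was higher and 4 were lower (median -0.52). The ferritin *ftn-1* (chromosome V, 7546468 to 7547579) was at 1.36, 2.29, 1.56 and 0.959 CPM in FW1256-exposed WT, against 15.5, 15.8, 19.2 and 14.0 CPM in *eat-2* mutants, 10.5-fold lower (log2 fold change -3.39 ± 0.24 SE, adjusted p = 1.99e-06, edgeR). The other ferritin, *ftn-2*, was at 478, 518, 514 and 483 CPM in FW1256-exposed WT and 751, 739, 697 and 669 CPM in *eat-2* mutants (-0.52 ± 0.05 SE, adjusted p = 7.48e-06, edgeR). For *aco-1*, on the X, the levels were 248, 241, 265 and 257 CPM in FW1256-exposed WT and 532, 464, 481 and 459 CPM in *eat-2* mutants (-0.94 ± 0.05 SE, adjusted p = 6.12e-07, edgeR). None of the 3 genes had overlapping groups. The ferroportin *fpn-1.1* fell (-0.56 ± 0.12 SE), and the haem importer *hrg-4* rose, with 23.4, 25.4, 22.1 and 17.8 CPM in FW1256-exposed WT and 9.58, 14.7, 9.26 and 8.30 CPM in *eat-2* mutants (1.08 ± 0.19 SE). The haem-linked gene *hrg-7* lay close to the threshold. It had 6.84, 16.0, 13.8 and 8.12 CPM in FW1256-exposed WT, and 6.28 CPM in *eat-2* replicate 2 while the other *eat-2* libraries had 0, 0.321 and 0. Its log2 fold change was 2.72 ± 1.11 SE (adjusted p = 0.0515, edgeR), and 6.67 (adjusted p = 6.64e-05, edgeR) without *eat-2* replicate 2. With all 8 libraries it was called under 5 of the alternatives, with adjusted p between 0.00865 (replicate block) and 0.0488 (library size alone) in edgeR.

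**Figure D5:**
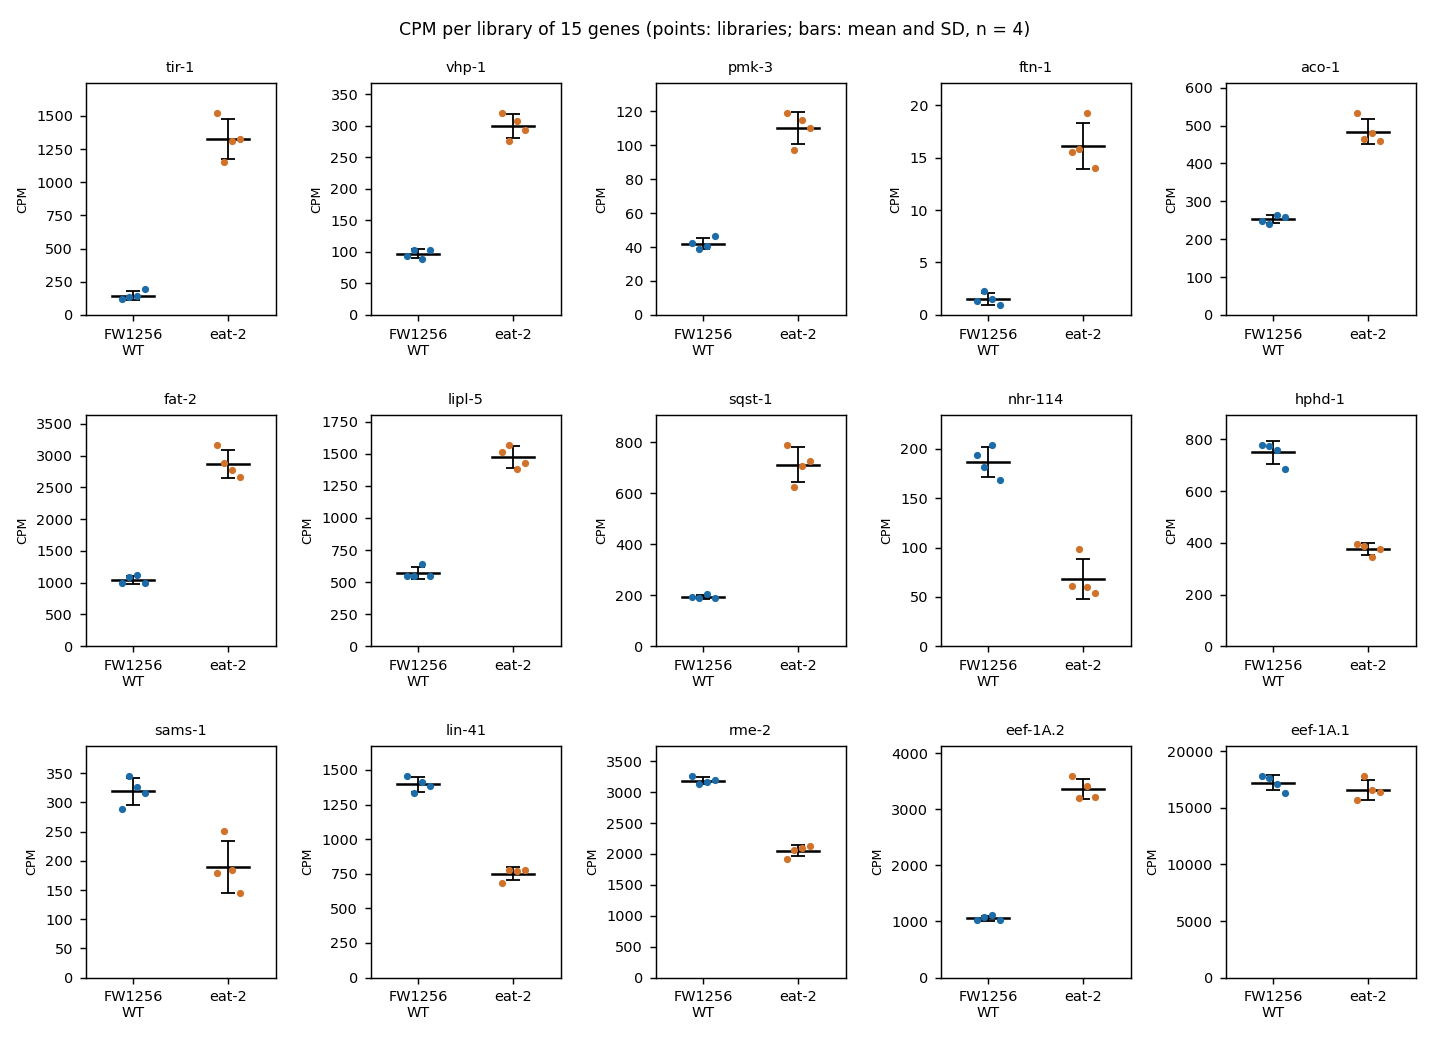
CPM per library (linear axes from 0) of 15 genes named in the text, with FW1256-exposed WT on the left and *eat-2* mutants on the right of each panel; points are libraries, and bars give the mean and SD (n = 4). The immune, iron and lipid genes from *tir-1* to *sqst-1* are lower in all 4 FW1256-exposed libraries, *nhr-114* to *rme-2* are higher, and *eef-1A.2* is lower while the groups of its paralogue *eef-1A.1* overlap.

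Antioxidant enzymes moved both ways, 5 higher and 4 lower of 11 tested (median 0.08). The majority of rises was not kept with library size alone, at a mean of at least 50 counts, or without FW1256-exposed replicate 1, *eat-2* replicate 3 or *eat-2* replicate 4. Besides *msra-1*, the cytosolic superoxide dismutase *sod-1* was higher, with 470.4, 477, 460.0 and 439 CPM in FW1256-exposed WT and 362, 405, 303 and 342 CPM in *eat-2* mutants (0.39 ± 0.08 SE, adjusted p = 0.00132, edgeR). The mitochondrial *sod-2* did not pass the test (0.08 ± 0.06 SE, adjusted p = 0.273, edgeR). The catalases, which break down hydrogen peroxide, were lower. The cytosolic *ctl-1* had 177, 163, 175 and 166 CPM in FW1256-exposed WT and 288, 247, 253 and 277 CPM in *eat-2* mutants (-0.64 ± 0.05 SE), and the peroxisomal *ctl-2* had 145, 147, 158 and 139 CPM in FW1256-exposed WT and 242, 220.3, 229 and 257 CPM in *eat-2* mutants (-0.69 ± 0.06 SE); they are neighbours of similar sequence, so reads may be shared between them. Glutathione reductase *gsr-1* (0.26) and *gpx-2* (0.28) rose, *gpx-1* fell (-0.26), and the peroxiredoxin *prdx-2* fell (-1.71) at a low level of 1.85, 3.19, 3.62 and 3.13 CPM in FW1256-exposed WT and 12.7, 8.02, 9.19 and 8.59 CPM in *eat-2* mutants.

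The measured genes of enzymes that make H2S differed little. The genes *cbs-1*, *cbs-2*, *mpst-1*, *sqrd-1* and *ethe-1* were not among the measured members of the list. The cystathionine gamma-lyase *cth-2* was at 466, 449.5, 479.7 and 431 CPM in FW1256-exposed WT and 458, 445, 390.2 and 374 CPM in *eat-2* mutants, with overlapping groups (0.13 ± 0.07 SE, adjusted p = 0.107, edgeR; 0.18, adjusted p = 0.0328, edgeR, without *eat-2* replicate 1; adjusted p = 0.0194 with DESeq2). Its paralogue *cth-1* was lower, with 105, 121, 130.1 and 107 CPM in FW1256-exposed WT and 159, 155, 137 and 136 CPM in *eat-2* mutants (-0.34 ± 0.08 SE, adjusted p = 0.00437, edgeR). The mercaptopyruvate sulfurtransferase *mpst-3* had 65.2, 65.7, 74.1 and 84.5 CPM in FW1256-exposed WT and 65.4, 62.2, 51.2 and 58.0 CPM in *eat-2* mutants (0.29 ± 0.10 SE, adjusted p = 0.0304, edgeR). The groups of *mpst-3* overlapped, as did those of *mpst-7* (0.47 ± 0.19 SE, adjusted p = 0.0445, edgeR), and neither call was kept without any one of several libraries: the adjusted p reached 0.0823 for *mpst-3*, without FW1256-exposed replicate 4, and 0.114 for *mpst-7*, without FW1256-exposed replicate 2. Of the 4 tested genes of the response to hypoxia and H2S, the fall of *swan-1* (-0.17 ± 0.03 SE) was called, and 1 gene was called higher without *eat-2* replicate 1. The prolyl hydroxylase gene *egl-9* was not called (0.17 ± 0.13 SE, adjusted p = 0.276, edgeR). Nor was *cysl-2*, which overlaps *vnut-1*, at 172, 181, 175 and 178 CPM in FW1256-exposed WT and 187, 171, 160 and 151 CPM in *eat-2* mutants (0.08 ± 0.06 SE, adjusted p = 0.293, edgeR).

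The methionine cycle, which makes the methyl donor S-adenosylmethionine, showed larger differences than the measured genes of H2S synthesis. The synthetase *sams-1*, on the X, was at 288, 345, 327 and 316 CPM in FW1256-exposed WT and 179, 252, 185 and 145 CPM in *eat-2* mutants (0.75 ± 0.14 SE, adjusted p = 0.00102, edgeR), and its paralogue *sams-5* was at 22.1, 20.1, 22.2 and 25.6 CPM in FW1256-exposed WT and 51.5, 57.0, 52.1 and 53.9 CPM in *eat-2* mutants (-1.25 ± 0.08 SE, adjusted p = 1.47e-06, edgeR). Both pairs of groups were separate, in opposite directions. The hydrolase *ahcy-1* (0.36), *sams-4* (0.32) and methionine synthase reductase *mtrr-1* (0.43) rose. The phosphoethanolamine methyltransferase *pmt-1*, which spends S-adenosylmethionine on phosphatidylcholine, fell, with 321, 344, 326 and 292 CPM in FW1256-exposed WT and 523, 520.2, 566 and 492 CPM in *eat-2* mutants (-0.71 ± 0.06 SE, adjusted p = 3.81e-06, edgeR). Over the whole list of H2S and methionine metabolism 7 genes were higher and 4 lower of 18 (median 0.22).

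Genes of propionate breakdown were mostly higher in FW1256-exposed WT. Worms break down propionate through vitamin B12-dependent enzymes, and induce a shunt of *acdh-1*, *ech-6*, *hach-1*, *hphd-1* and *alh-8* when B12 is low. This list was drawn up after the values had been seen. Of 11 tested genes 7 were higher and 1 lower (median 0.70). The single fall was that of *alh-8*, which overlaps F13D12.8. It was at 1664, 1647, 1656 and 1515 CPM in FW1256-exposed WT and 1889, 1660, 1771 and 1751 CPM in *eat-2* mutants, with overlapping groups (log2 fold change -0.13 ± 0.05 SE, adjusted p = 0.0428, edgeR). This fall was not kept without any of 6 of the libraries. The dehydrogenase *hphd-1* was at 779.6, 777, 760.2 and 686 CPM in FW1256-exposed WT and 397, 388, 345 and 378 CPM in *eat-2* mutants (0.99 ± 0.06 SE, adjusted p = 5.92e-07, edgeR). The hydrolase *hach-1* was at 697, 697, 658 and 623 CPM in FW1256-exposed WT and 374, 373, 353 and 390.3 CPM in *eat-2* mutants (0.84 ± 0.05 SE, adjusted p = 5.63e-07, edgeR), and the hydratase *ech-6* at 1180.0, 1185, 1172 and 1083 CPM in FW1256-exposed WT and 687, 768, 612 and 603 CPM in *eat-2* mutants (0.79 ± 0.08 SE). For the first enzyme of the shunt, *acdh-1*, the spread was wider, with 55.8, 76.2, 57.4 and 65.9 CPM in FW1256-exposed WT and 20.0, 58.9, 26.3 and 14.8 CPM in *eat-2* mutants (1.08 ± 0.37 SE, adjusted p = 0.0237, edgeR; 0.0625 without *eat-2* replicate 1, and 1.63 on the log2 scale without *eat-2* replicate 2), and its *eat-2* replicate 2 overlapped the FW1256-exposed libraries. The carboxylase subunits of the B12-dependent route, *pcca-1* (0.00 ± 0.03 SE) and *pccb-1* (0.06 ± 0.05 SE), did not pass the test, while *mmaa-1*, which serves the B12-dependent mutase, rose (0.70 ± 0.13 SE).

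Lipid genes moved both ways. Fatty acid synthesis and desaturation genes were higher at 5 and lower at 10 of 22 (median -0.18). The desaturase *fat-2*, which makes linoleic acid, was at 990.0, 1085, 1115 and 997 CPM in FW1256-exposed WT and 3170.4, 2887, 2771 and 2656 CPM in *eat-2* mutants (2.74-fold lower, adjusted p = 1.96e-07, edgeR). The next desaturase, *fat-3*, was at 28.8, 37.8, 40.2 and 41.3 CPM in FW1256-exposed WT and 118, 92.5, 83.2 and 91.3 CPM in *eat-2* mutants (2.60-fold lower, adjusted p = 1.45e-05, edgeR). All 4 fat desaturase genes measured were lower and had separate groups, with *fat-4* at -0.61 and *fat-6* at -0.75 on the log2 scale, both named because they complete the family. Fat oxidation, lipase and lipid-binding genes, in contrast, were higher at 16 and lower at 7 of 25 (median 0.28). Their share of counts went the other way, at 1.21% to 1.26% in FW1256-exposed WT and 1.49% to 1.59% in *eat-2* mutants. The largest fall there was that of the lysosomal lipase *lipl-5*, at 550.0, 549, 638 and 547 CPM in FW1256-exposed WT and 1512, 1571, 1380.2 and 1429 CPM in *eat-2* mutants (-1.37 ± 0.06 SE, adjusted p = 2.30e-07, edgeR), followed by the fatty acid-binding protein *lbp-1* (-0.85 ± 0.07 SE).

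Lysosomal proteases and other hydrolases were higher at 3 and lower at 11 of 20 (median -0.37), and took 0.590% to 0.668% of counts in FW1256-exposed WT, against 1.01% to 1.08% in *eat-2* mutants. The aspartyl protease genes *asp-1* and *asp-5* made up most of that difference. For *asp-1* the levels were 2123, 2075, 2204 and 1974 CPM in FW1256-exposed WT and 4413, 4391, 4327 and 3863 CPM in *eat-2* mutants (-1.02 ± 0.05 SE), and for *asp-5* they were 928, 885, 1079.8 and 939 CPM in FW1256-exposed WT and 2278, 2256, 2013 and 2232 CPM in *eat-2* mutants (-1.20 ± 0.07 SE). The autophagy receptor *sqst-1*, homologue of p62, was at 192, 189.8, 204 and 190.2 CPM in FW1256-exposed WT and 791, 626, 707 and 727 CPM in *eat-2* mutants, 3.67-fold lower (adjusted p = 8.69e-08, edgeR). Among autophagy genes as a whole 1 was higher and 4 were lower of 10. Subunits of the V-ATPase, the proton pump of lysosomes, did not fall: 7 were higher and 0 lower of 12, with *vha-18* (0.57 ± 0.04 SE) first.

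Glycolysis genes were mostly higher. In the second highest count class 49.4% of all tested genes were higher, and in the highest 61.6%, and the list was not compared within classes. Of glycolysis and gluconeogenesis genes, a list drawn up after the values had been seen, 12 were higher and 3 lower of 18 (median 0.36). After *agl-1* came *gpd-4*, a glyceraldehyde-3-phosphate dehydrogenase with a near-identical copy, with 725, 704, 681 and 693 CPM in FW1256-exposed WT and 405, 444, 351 and 416 CPM in *eat-2* mutants (0.79 ± 0.06 SE, adjusted p = 4.13e-06, edgeR). The pyruvate kinase *pyk-1* (-0.93 ± 0.14 SE) and the trehalose synthase *tps-1* (-0.57 ± 0.08 SE), on the X, fell. TCA cycle genes were higher at 10 and lower at 3 of 18, the largest fall after *aco-1* being that of the isocitrate dehydrogenase *idh-2* (-0.79 ± 0.06 SE), on the X. That majority of rises was not kept when overlapping genes and pseudogenes were left out (2 higher, 2 lower), and the list's share of counts overlapped, at 0.717% to 0.724% in FW1256-exposed WT and 0.699% to 0.744% in *eat-2* mutants. Nuclear genes of the respiratory chain and ATP synthase were higher at 13 and lower at 4 of 27 (median 0.12), with 8 lower when scaled by library size alone. The succinate dehydrogenase subunit *sdha-2* rose (0.60 ± 0.06 SE), and the complex III core subunit *ucr-2.1*, on the X, fell (-0.47 ± 0.04 SE).

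All 12 measured subunits of the proteasome, the complex that degrades ubiquitin-tagged proteins, were higher in FW1256-exposed WT (median 0.43), and none had overlapping groups. They held 0.891% to 0.932% of counts in FW1256-exposed WT and 0.704% to 0.749% in *eat-2* mutants. The core subunit *pas-2* was at 909, 896, 835 and 808 CPM in FW1256-exposed WT and 555, 631, 522 and 564 CPM in *eat-2* mutants (0.60 ± 0.06 SE, adjusted p = 1.86e-05, edgeR), and the base ATPase *rpt-1* at 906, 903, 888 and 889 CPM in FW1256-exposed WT and 581, 640.5, 624 and 636 CPM in *eat-2* mutants (0.53 ± 0.04 SE). Chaperones were higher at 22 and lower at 7 of 39. The mitochondrial chaperonin *hsp-60* was at 713, 689, 660.4 and 592 CPM in FW1256-exposed WT and 321, 434, 315 and 389 CPM in *eat-2* mutants (0.86 ± 0.10 SE, adjusted p = 5.36e-05, edgeR), while the J-domain gene *dnj-16* (-1.17 ± 0.15 SE) and the cyclophilin *cyn-6* (-0.94 ± 0.07 SE) fell. F-box, MATH, BTB and Skp1 family genes, adaptors of ubiquitin ligases, ran against the proteasome, with 3 higher and 12 lower of 21.

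Cytosolic ribosomal proteins differed least of the large lists. Of 46 tested, 7 were higher and 5 lower (26.1% called, against 69.3% of all genes), and their median log2 fold change was 0.01. The count of rises was 17 without *eat-2* replicate 2, and the falls numbered 3 without FW1256-exposed replicate 3 or 4. The majority of rises was not kept with library size alone (11 falls), at a mean of at least 50 counts, with the replicate block (8 and 8), or without *eat-2* replicate 3 or 4. Their share of counts overlapped, at 11.2% to 12.1% in FW1256-exposed WT and 11.5% to 14.0% in *eat-2* mutants. Of mitochondrial ribosomal proteins 6 were higher and 0 lower of 11. Among translation factors, the scaffold *ifg-1* (eIF4G), which overlaps *dab-1*, reached 422, 378, 369 and 401 CPM in FW1256-exposed WT, against 195, 210.1, 211 and 216 CPM in *eat-2* mutants (0.92 ± 0.05 SE, adjusted p = 5.53e-07, edgeR), and *iff-2* (eIF5A) fell (-0.78 ± 0.05 SE). The seryl-tRNA synthetase *sars-1* was at 500.2, 502, 507 and 497 CPM in FW1256-exposed WT and 979, 939.9, 939 and 951 CPM in *eat-2* mutants (-0.93 ± 0.03 SE, adjusted p = 3.68e-08, edgeR). Splicing and mRNA processing factors were higher at 21 and lower at 3 of 35, with 1 lower without FW1256-exposed replicate 3 and 6 lower with library size alone.

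Falls outnumbered rises among called neuronal genes. In the lowest count class 48.4% of all tested genes were lower, and in the second lowest 53.1%. The neuronal lists were not compared within classes. Neuropeptide and insulin-like peptide genes, whose products carry signals between cells, were higher at 1 (*nlp-24*) and lower at 17 of 20 (median -0.64). The insulin-like gene *ins-17* was at 21.5, 20.6, 19.3 and 19.2 CPM in FW1256-exposed WT and 46.7, 40.4, 47.9 and 46.0 CPM in *eat-2* mutants (-1.16 ± 0.08 SE, adjusted p = 1.47e-06, edgeR), and the FMRFamide-like gene *flp-18* at 42.1, 41.9, 39.7 and 39.2 CPM in FW1256-exposed WT and 90.4, 76.6, 99.7 and 87.8 CPM in *eat-2* mutants (2.17-fold lower, adjusted p = 2.41e-06, edgeR). Both had separate groups. Of ion channels and neurotransmitter receptors 2 were higher and 22 lower of 38, 1 of the rises being kept at a mean of at least 50 counts (median -0.59). After *cng-1*, the glutamate-gated chloride channel *avr-14*, a target of ivermectin, fell most among those with at least 100 mean counts, with 3.64, 4.65, 3.87 and 3.32 CPM in FW1256-exposed WT and 21.1, 17.8, 18.4 and 17.0 CPM in *eat-2* mutants (-2.26 ± 0.14 SE, adjusted p = 9.04e-07, edgeR). Chemoreceptor genes were mostly under the count minimum, with 11 of 48 tested; of these 1 was higher and 7 were lower (1 at a mean of at least 50 counts), and a pair of identical gene entries named *srd-71* counts as 2 of the falls.

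Among called transcription factors falls outnumbered rises. Of all tested genes, 48.4% were lower in the lowest count class and 53.1% in the second lowest, and these lists were not compared within classes. Nuclear hormone receptors were higher at 6 and lower at 24 of 51, with 3 higher when scaled by library size alone (median -0.64). Against the rise of *nhr-114* stood the falls of *nhr-91*, with 4.72, 7.36, 6.68 and 0.192 CPM in FW1256-exposed WT and 24.2, 26.2, 28.0 and 24.3 CPM in *eat-2* mutants (-2.44 ± 0.58 SE, adjusted p = 0.00386, edgeR), and *nhr-6*, with 0.703 to 7.33 CPM in FW1256-exposed WT and 12.8, 13.9, 12.5 and 19.4 CPM in *eat-2* mutants (-2.41 ± 0.61 SE, adjusted p = 0.00549, edgeR; -3.65 without FW1256-exposed replicate 1). Both vary several-fold within FW1256-exposed WT and overlap other genes. Homeobox, bHLH, zinc finger and bZIP factors were higher at 11 and lower at 28 of 55. The zinc finger gene *lin-26*, which specifies epithelial cells, rose (0.72 ± 0.10 SE), as did the ONECUT gene *ceh-39* (0.55 ± 0.05 SE). Chromatin regulators were higher at 17 and lower at 8 of 30, with the chromodomain gene *cec-8* at 129, 135, 157 and 166 CPM in FW1256-exposed WT and 513, 399.7, 484 and 454 CPM in *eat-2* mutants (-1.66 ± 0.10 SE, adjusted p = 8.05e-07, edgeR).

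Cuticle collagens, the structural proteins of the worm's outer layer, gave no common direction. Of 14 tested, 3 were higher and 2 lower (1 without FW1256-exposed replicate 1 or 4, or at a mean of at least 50 counts), and their median log2 fold change was -0.55. Yet their share of counts was higher in each FW1256-exposed library, 0.438% to 0.496%, than in any *eat-2* library, 0.161% to 0.314%. The rises were in the 3 collagen genes with the most counts, *col-160*, *col-124* and the X-linked *col-184* (0.78). Other cuticle and molting genes were higher at 1 and lower at 8 of 16, with 2 higher without *eat-2* replicate 2. Transthyretin-like genes, secreted proteins of nematodes listed after the values had been seen, were lower at 9 of 11. The largest fall among them was that of *ttr-23*, with 7.98, 9.30, 9.54 and 7.22 CPM in FW1256-exposed WT and 36.6, 33.0, 34.3 and 29.9 CPM in *eat-2* mutants (-1.97 ± 0.11 SE, adjusted p = 7.00e-07, edgeR). UDP-glucuronosyltransferases moved both ways by large amounts, 4 higher and 6 lower of 10. Against *ugt-64* stood *ugt-24*, with 5.48, 6.53, 7.61 and 6.20 CPM in FW1256-exposed WT and 32.5, 30.0, 33.0 and 31.2 CPM in *eat-2* mutants (-2.30 ± 0.11 SE, adjusted p = 2.49e-07, edgeR), and *ugt-29*, with 42.8, 57.1, 48.3 and 52.0 CPM in FW1256-exposed WT and 189, 201, 199 and 179 CPM in *eat-2* mutants (-1.94 ± 0.08 SE, adjusted p = 1.74e-07, edgeR). Among muscle genes the troponin T gene *tnt-2* was at 662, 644, 638 and 578 CPM in FW1256-exposed WT and 276, 363, 332 and 263 CPM in *eat-2* mutants (1.03 ± 0.10 SE, adjusted p = 1.10e-05, edgeR).

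Measured genes on a list named for insulin and TOR signalling mostly differed by small amounts. Insulin signalling sets the activity of the FOXO factor DAF-16. No measured member codes for a TOR complex subunit, and members such as *daf-3*, *daf-4* and *aak-2* belong to other pathways. Of 13 tested, 7 were higher and 2 lower (median 0.14), with 4 higher when scaled by library size alone. The kinase *akt-1* was at 841, 773, 813 and 821 CPM in FW1256-exposed WT and 599, 601, 639 and 656 CPM in *eat-2* mutants (0.38 ± 0.04 SE, adjusted p = 2.94e-05, edgeR). The FOXO gene *daf-16* was at 49.2, 79.6, 67.1 and 51.6 CPM in FW1256-exposed WT and 62.0, 77.4, 71.0 and 65.6 CPM in *eat-2* mutants, with overlapping groups (-0.16 ± 0.15 SE, adjusted p = 0.364, edgeR). The AMPK subunit genes went opposite ways, *aak-1* rising (0.23 ± 0.05 SE) and *aak-2*, on the X, falling (-0.39 ± 0.06 SE), and the CREB coactivator *crtc-1*, a target of AMPK, was at 30.7, 30.6, 31.0 and 27.8 CPM in FW1256-exposed WT and 53.1, 52.8, 53.5 and 52.6 CPM in *eat-2* mutants (-0.82 ± 0.06 SE, adjusted p = 2.21e-06, edgeR). Of 6 reporters that DAF-16 induces, 5 were lower and 0 higher; these are *ctl-1*, *ctl-2*, *ftn-1*, the lysozyme *lys-8* (-0.99) and the glyoxylate cycle enzyme *icl-1* (-0.65), and the sixth, *gpd-2*, did not pass the test (0.03 ± 0.04 SE). Both tested reporters that DAF-16 represses were lower too, *vit-2* and the acid ceramidase gene *asah-1*, with 51.9, 58.9, 54.6 and 57.8 CPM in FW1256-exposed WT and 271, 292, 260.3 and 255 CPM in *eat-2* mutants (-2.27 ± 0.06 SE, adjusted p = 3.50e-08, edgeR).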

How the data were processed

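RNA from whole bodies of 4 pools each of FW1256-exposed WT, *eat-2* mutants and unexposed WT was sequenced. Groups were read from the sample titles, since the field that describes exposure is worded the same for every sample. The authors deposited 1 table of estimated counts per library, obtained with kallisto 0.46.0 on WBcel235 and scaled for transcript length with tximport; they name DESeq2 1.24.0 for their own comparisons, whose fold changes and p-values were not used here. Because kallisto assigns reads by similarity to transcripts, near-identical genes may share them. Depth was 14769332 to 19199982 estimated counts per library over the 5272 genes of the tables, which hold part of the genes of the genome (3363 of 19985 protein-coding genes of Ensembl release 115).

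Estimated counts were rounded to whole numbers, genes filtered with filterByExpr, libraries scaled by TMM, and the 8 libraries of the comparison fitted with edgeR 4.0.16 in R 4.3.3 (quasi-likelihood test, adjusted by Benjamini-Hochberg over all 3715 tested genes, called under 0.05, two-sided). The steps were tested on simulated data in which few genes, with at least 50 counts on average, were changed in balanced directions. Most genes differ in the real data, so that test cannot show how the scaling behaves there. Position, biotype and overlapping exons came from Ensembl release 115, which held 5271 of the 5272 genes. No library pair agreed within sampling noise.

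Named genes were the 12 largest rises and falls that had separate groups, a symbol and 100 or more counts on average, the called list members with the largest changes at that mean (up to 2 each way), and members of the lists of H2S and methionine metabolism, hypoxia, iron, antioxidants, insulin and TOR signalling, the TIR-1 pathway and vitellogenins. Members and lists were chosen with earlier results of these data known; innexins, propionate and vitamin B12, glycolysis, transthyretin-like and nuclear pore lists were added, and memberships of others corrected, after values were seen. Chosen after their values were seen were *eef-1A.1*, *pab-1*, *asb-1*, *asb-2*, *fat-4*, *fat-6*, *col-184*, *asp-1*, *icl-1*, *gpd-2*, *ech-6*, *hach-1*, *hphd-1*, *mmaa-1*, *pcca-1*, *pccb-1*, *gsp-4* and *asah-1*. Alternatives were DESeq2 1.42.0, its size factors, library size alone, no filter on low counts, a mean of at least 50 counts, a fit that included unexposed WT, a block for replicate number, an adjusted p under 0.01, a change of at least 2-fold, leaving out overlapping genes and pseudogenes, and leaving out each library in turn. Promoter motifs were planned and not run.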

Additional observations from a re-analysis of the deposited data

Results flagged for a closer look

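In 24 of 302 groups of 4 libraries (136 genes and 15 lists of genes, in both groups), 1 library stood apart, with a gap to its nearest neighbour, as a share of the group's range, past the limit that Dixon's test sets for 4 samples; chance gives about 1 in 20. The library was *eat-2* replicate 2 in 8 of them and FW1256-exposed replicate 3 in 5.

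The library *eat-2* replicate 2 was the highest of its group for *col-124* (586 CPM, the others 176 to 205; gap 0.930 of the range), *nhr-114* (98.4 CPM, the others 54.0 to 61.1; 0.841), *epic-1* (343 CPM, the others 188 to 213; 0.835), *hrg-7* (6.28 CPM, the others 0 to 0.321; 0.949) and *sdha-2* (353 CPM, the others 299 to 308; 0.838). Each of these genes was higher in FW1256-exposed WT by its fitted value, so this library lay on that side. It was the lowest for *eol-1* (44.4 CPM, the others 54.9 to 56.8; 0.846), *try-5* (18.1 CPM, the others 22.1 to 22.9; 0.831) and *dnj-16* (84.8 CPM, the others 91.3 to 92.3; 0.861), which were lower in FW1256-exposed WT. All 8 values therefore lay towards those of FW1256-exposed WT. Of other *eat-2* libraries, replicate 1 was lowest for *egl-9* (46.9 CPM, the others 64.0 to 66.1; 0.893), *gpx-2* (149 CPM, the others 180.3 to 184; 0.882) and *lin-41* (685 CPM, the others 767 to 778; 0.883) and highest for *gpd-2* (499 CPM, the others 448 to 452; 0.925), and replicate 4 was lowest for *asp-1* (3863 CPM, the others 4327 to 4413; 0.844).

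Among FW1256-exposed libraries, replicate 3 was the highest for *lipl-5* (638 CPM, the others 547 to 550.0; 0.962), *lys-8* (566 CPM, the others 464 to 473; 0.919), *dnj-16* (55.9 CPM, the others 33.7 to 35.5; 0.916), *sqst-1* (204 CPM, the others 189.8 to 192; 0.869) and *clec-67* (58.1 CPM, the others 40.9 to 43.4; 0.855). Replicate 1 was highest for *msra-1* (249 CPM, the others 192 to 196; 0.939) and *nhr-6* (7.33 CPM, the others 0.703 to 1.67; 0.855), and replicate 2 for *plg-1* (25.3 CPM, the others 17.4 to 18.5; 0.866) and *gsp-4* (10.6 CPM, the others 4.29 to 4.55; 0.958). Replicate 4 was lowest for *ech-6* (1083 CPM, the others 1172 to 1185; 0.874) and *crtc-1* (27.8 CPM, the others 30.6 to 31.0; 0.879). In none of these genes except *hrg-7* did leaving out a single library change the call.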

How the results depend on the processing

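The number of called genes, 2575, was within 1.5 times of that value with DESeq2, either other scaling, either other filter, the fit over 3 groups, the replicate block (2593), an adjusted p under 0.01, and each library left out (2425 to 2550 in all, 1167 to 1209 higher and 1249 to 1344 lower). No called gene turned its direction under any of these. Requiring at least 2-fold left 610 genes (45 higher, 565 lower), and leaving out overlapping genes and pseudogenes left 1477 (712 higher, 765 lower) of 2164 tested. The majority direction of a list, counted over its called members, was less stable. At 2-fold it changed, ties included, in 29 of 56 lists, among them the proteasome, oocyte, germline, cell cycle, chaperone and splicing lists. Without overlapping genes and pseudogenes it changed in 10 lists, and at a mean of at least 50 counts in 6. With library size alone it changed in 9, and calls there were 1011 higher and 1497 lower. Of 136 genes with values in the text, 67 lost the call at 2-fold, 5 at an adjusted p under 0.01, and none turned. The call of *mpst-3* was lost with the replicate block (adjusted p = 0.0535, edgeR) and without overlapping genes. Those of *mpst-3* and *mpst-7* were lost with library size alone and at a mean of 50 counts, and that of *nspd-7* in the fit over 3 groups. The call was gained by *hrg-7* with the block (adjusted p = 0.00865, edgeR), either other scaling and either other filter, by *cth-2* with DESeq2 and its size factors, and by *asb-2* with DESeq2. The median log2 fold change of tested genes was -0.12 with library size alone, against -0.05 with TMM. Replicate numbers did not pair the libraries: correlations of same-numbered deviations were 0.05, 0.07, -0.01 and 0.08, and 2 of 4 FW1256-exposed libraries matched their own number best. The motif search was not run. Genes near the count minimum are limited by depth, and for genes at 0 the groups cannot be compared by a fold.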

Other observations

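Unexposed WT, which took no part in the fit that called these genes, lay between the means of FW1256-exposed WT and *eat-2* mutants at 865 of the 1229 genes called higher (70.4%) and at 966 of the 1346 called lower (71.8%). It was past the FW1256-exposed mean at 177 and 159 of these genes, and past the *eat-2* mean at 187 and 221. These shares are a description, since a gene is called where its group means lie apart.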
